A study of Homo sapiens with 9 samples.

Results

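The early response of MDA-MB-231 cells to the copper chelator TEPA was measured in 6 of the 9 RNA-seq libraries of the study, 3 from untreated cells and 3 from cells treated with TEPA for 8 h. MDA-MB-231 is an established human triple-negative breast cancer cell line, grown here in DMEM with fetal bovine serum. The remaining 3 libraries came from cells treated for 24 h and were compared with the same untreated libraries, so values at the 2 times share their controls. The sample labels give 8 mM TEPA whereas the study's RNA-seq methods give 4 mM, no separate control was labelled for each time, and the harvest time of the untreated cells is not given in the sources used here. The study's text and its reagent list write TEPA out as different polyamines, so the compound is called TEPA here. All groups were 1 cell line, no genetic change was labelled, and nothing in the labels says whether replicates were separate cultures, so the p-values measure only the spread between these libraries.

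Polyamine chelators such as TEPA bind copper most tightly and also bind zinc and other transition metals. Mammalian cells sense zinc through the transcription factor MTF1, which drives the metallothionein genes, and they need copper for cytochrome c oxidase, superoxide dismutase and the kinase MEK1, which acts upstream of ERK. MDA-MB-231 cells carry activated RAS and RAF and release inflammatory cytokines under NF-kB and AP-1 control.

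The 6 libraries held 37617385 to 46515260 counts, and 16556 of 59453 gene names passed the expression filter. A gene was called higher or lower where edgeR's quasi-likelihood test gave a Benjamini-Hochberg adjusted p under 0.05 and the log2 fold change exceeded 0.5 in size; it is said to have risen or fallen where it passed the adjusted p. Values in parentheses after gene names are log2 fold changes, and errors after ± are standard errors unless named as SD. By the first rule 10.1% of the genes tested were called higher and 7.67% lower, by the adjusted p alone 25.2% and 24.5%, and the median log2 fold change of all genes was -0.00134. Separation of the 2 groups was common. Of the 16556 genes 6568 passed the adjusted p, had a mean of at least 100 counts and did not overlap between groups. Genes of the line such as VIM, CD44 and EGFR were expressed, PGR had no count in any of the 6 libraries and ESR1 did not pass the filter. ERBB2, the third receptor checked, did pass it. The summed level of these 3 receptors was 77.5 to 87.4 CPM in untreated and 69.5 to 75.3 CPM in TEPA 8 h libraries. Of 22 markers of immune, endothelial, stromal and other cells 7 passed the filter and 6 were at 0, CD3E, DCN and HBB among them, and their summed level was 186 to 194 CPM (counts scaled to library size) in untreated and 161 to 169 CPM in TEPA 8 h libraries. The untreated libraries were not equally far from the treated ones. Untreated replicate 1 lay farthest from the TEPA 8 h mean for 72.3% of genes called lower and 51.6% of those called higher, against 52.5% of all genes tested, and untreated replicate 2 lay nearest for 64.3% and 52.1%. Without untreated replicate 1, 1539 genes were called higher and 1047 lower, in place of 1673 and 1270. Counts are relative to each library's total, so a lower level per cell and fewer expressing cells cannot be told apart.

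**Figure D1:**
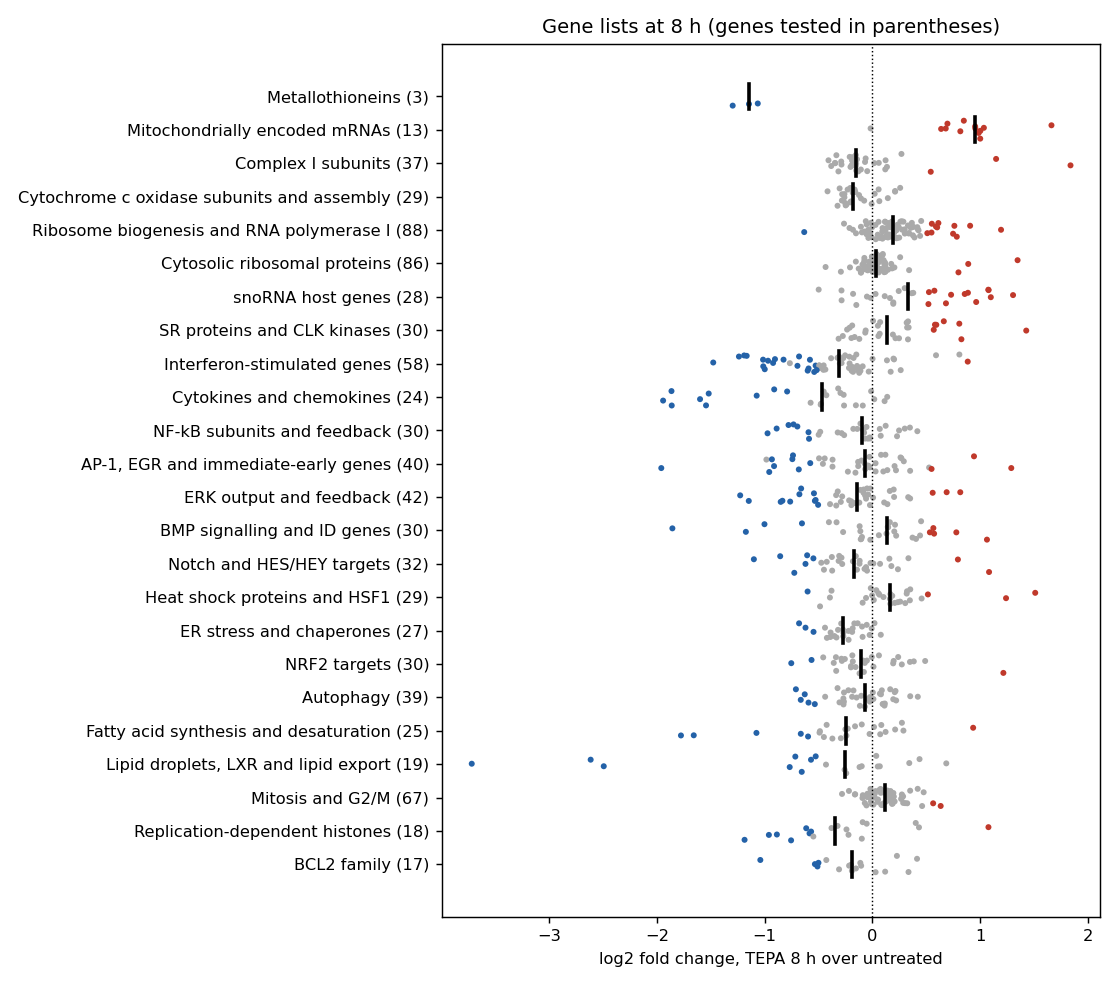
Log2 fold change at 8 h over untreated for the tested members of 24 gene lists, 1 point a gene; red points were called higher, blue points lower and grey points neither, black bars are list medians and the dotted line is the median of all genes tested. The metallothioneins lie near -1, the mitochondrially encoded mRNAs near 1, and the cytokine and interferon lists extend to the left.

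All 3 metallothionein genes that passed the filter, of 10 listed, fell, and so did the zinc exporter SLC30A1, whereas the zinc importer SLC39A10 rose. Metallothioneins are small cysteine-rich proteins that hold zinc and copper. MT2A had CPM of 218, 204 and 248 in untreated and 93.4, 108 and 101 in TEPA 8 h libraries. The treated libraries were all below the untreated ones, at -1.15 ± 0.087 on the log2 scale (adjusted p = 6.1e-08). MT1E had CPM of 26, 24.9 and 29.2 in untreated and 10.9, 10.6 and 11.1 in TEPA 8 h libraries, a log2 fold change of -1.30 ± 0.069 (adjusted p = 1.9e-09). MT1X had CPM of 8.85, 8.95 and 9.03 in untreated and 4.37, 4.24 and 4.22 in TEPA 8 h libraries, a log2 fold change of -1.06 ± 0.11 (adjusted p = 2e-06). MT1X shares 18.6% of its exon bases with another gene on the same strand, so part of its reads could have been left uncounted. None of the 3 genes overlapped between groups, and their summed level with the low members was 238 to 287 CPM in untreated and 109 to 123 CPM in TEPA 8 h libraries. At 24 h, against the same untreated libraries, MT2A stood at -1.60 and MT1E at -2.39.

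SLC30A1, which exports zinc from the cytosol, had CPM of 59.8, 65.8 and 71.4 in untreated and 34.9, 30.6 and 30.8 in TEPA 8 h libraries, at -1.03 ± 0.076 on the log2 scale (adjusted p = 4.4e-08). SLC39A10, which imports zinc, had CPM of 71.5, 69.5 and 72.7 in untreated and 165, 151 and 147 in TEPA 8 h libraries, at 1.12 ± 0.052 (adjusted p = 5.3e-10). The groups were thus separate for both transporters, in opposite directions. Of 19 zinc genes tested, 1 was called higher, a share below the 10.1% of all genes, and 2 lower, near the 7.67% of all genes. SLC39A11, of the same importer family, fell by 0.74 on the log2 scale, while MTF1 itself stood at -0.027 (adjusted p = 0.65). Of the copper transporters and chaperones, 0 of 19 were called higher and 0 lower by edgeR with the fold limit, 5 and 6 passed the adjusted p alone, with log2 fold changes from -0.35 to 0.29. Among 15 iron genes the iron exporter SLC40A1 (-1.43, at about 1.06 CPM when untreated) and the ferric reductase CYBRD1 (-0.65) were called lower, and the transferrin receptor TFRC stood at 0.24.

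The promoters of these genes are shown because MTF1 acts through metal response elements, whose core was searched as TGCACNC or TGCGCNC on both strands of the RefSeq promoter window that spans each start site (GRCh38.p14). Of 35116 promoters 29.6% held the core and 8.6% held 2 or more. Of 24 promoters of 17 listed zinc transport and sensing genes 45.8% held the core and 8.33% held 2 or more. MT2A held 8 matches, MT1X 4 and SLC30A1 2. Capitals mark the matches, which are letters only and no evidence of binding.
MT2A promoter, chr16:56608334-56608633, plus strand: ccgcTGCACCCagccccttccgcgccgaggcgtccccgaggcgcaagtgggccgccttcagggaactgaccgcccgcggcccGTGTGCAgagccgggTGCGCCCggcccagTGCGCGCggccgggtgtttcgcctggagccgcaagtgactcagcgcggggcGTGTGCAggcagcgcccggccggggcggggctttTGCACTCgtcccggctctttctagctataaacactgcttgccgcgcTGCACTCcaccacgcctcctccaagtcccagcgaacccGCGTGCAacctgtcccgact
MT1X promoter, chr16:56682220-56682519, plus strand: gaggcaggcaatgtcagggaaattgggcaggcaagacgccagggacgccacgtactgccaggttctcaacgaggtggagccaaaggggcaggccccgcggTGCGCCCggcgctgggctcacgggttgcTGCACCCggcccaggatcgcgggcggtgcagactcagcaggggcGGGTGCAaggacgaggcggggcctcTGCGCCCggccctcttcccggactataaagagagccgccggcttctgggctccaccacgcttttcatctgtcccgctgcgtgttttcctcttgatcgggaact
SLC30A1 promoter, chr1:211579112-211579411, minus strand: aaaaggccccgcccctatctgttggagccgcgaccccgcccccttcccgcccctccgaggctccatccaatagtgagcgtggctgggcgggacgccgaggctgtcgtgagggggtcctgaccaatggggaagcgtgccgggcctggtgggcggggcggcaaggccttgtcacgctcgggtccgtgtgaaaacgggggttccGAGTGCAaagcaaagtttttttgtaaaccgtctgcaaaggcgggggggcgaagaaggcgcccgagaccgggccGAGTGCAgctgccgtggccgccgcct

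**Figure D2:**
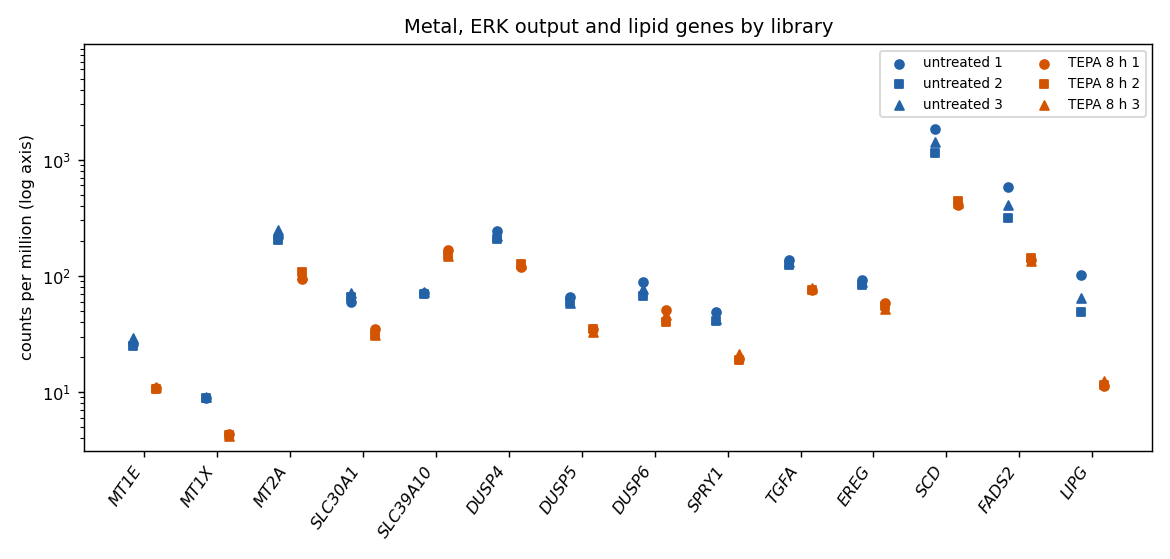
CPM in each library (log axis) for metal, ERK output and lipid genes; blue symbols are untreated and orange symbols TEPA 8 h libraries, with the symbol shape giving the replicate. For MT2A, SLC30A1, DUSP4 and SCD the 3 treated libraries lie below the 3 untreated ones, and for SLC39A10 above them.

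Most mRNAs of the mitochondrial genome rose at 8 h, while among the nuclear genes for the same complexes more fell than rose. Of 13 mitochondrially encoded mRNAs 12 were called higher at a median of 0.95, and MT-ND3 alone was not (-0.017, adjusted p = 0.86). The mitochondrial genome gave 2.28% ± 0.572 of all counts in untreated and 3.87% ± 0.227 in TEPA 8 h libraries (SD, n = 3 each). MT-ND4, a complex I subunit, had CPM of 1581, 3132 and 2112 in untreated and 4820.3, 4262 and 4899.8 in TEPA 8 h libraries, a log2 fold change of 1.03 ± 0.16 (adjusted p = 5e-05). MT-CO1, the catalytic subunit of cytochrome c oxidase, had CPM of 3621, 5895 and 4267 in untreated and 8325, 7549.6 and 8389.6 in TEPA 8 h libraries, with 0.82 ± 0.12 on the log2 scale (adjusted p = 2.8e-05). MT-ND6, the one protein gene on the light strand, had CPM of 7.22, 22.7 and 12.9 in untreated and 51.7, 41.8 and 43.9 in TEPA 8 h libraries and the steepest rise, 1.66 ± 0.24 (adjusted p = 3.3e-05). Groups were separate for all 3, although the untreated libraries themselves spread widely, lowest in replicate 1 and highest in replicate 2, and without untreated replicate 1 the list's median was 0.76. The ribosomal RNAs MT-RNR1 (0.15, adjusted p = 0.14) and MT-RNR2 (0.60, adjusted p = 4.9e-05) moved less. Since the libraries were selected for poly(A), levels of these RNAs and of the mRNAs, low-level MT-ND6 among them, are not those of total RNA. At 24 h the list's median was -0.36, and 12 of 13 were lower at 24 h than at 8 h by the direct test with the fold limit.

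The changes of the nuclear-encoded subunits were small. Of 37 nuclear complex I genes 20 passed the adjusted p downwards and 6 upwards (median -0.15), of 29 cytochrome c oxidase genes 17 and 3 (median -0.18), and of 19 ATP synthase genes 11 and 2 (median -0.12). Just 1 complex I gene above 1 CPM was called higher, NDUFA13 (1.84), which shares 21% of its exon bases with a neighbour and is uncertain. The complex III assembly factor UQCC3 was called lower (-0.84) and stood at -3.73 at 24 h. In coenzyme Q synthesis COQ5 (-0.59) and COQ10A (-0.58) were called lower. The 78 mitochondrial ribosomal protein genes had a median of 0.004.

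RNA processing and ribosome production genes leaned upwards. Among 88 ribosome biogenesis and RNA polymerase I genes 53 passed the adjusted p upwards and 5 downwards, with a median of 0.19, or 0.12 without untreated replicate 1. With the fold limit 11 were called higher, a share near the 10.1% of all genes, and 1 lower, and without untreated replicate 1 there were 7 called higher. UTP20, a processing factor of the small subunit, had CPM of 80.9, 109.9 and 101 in untreated and 166, 163 and 165 in TEPA 8 h libraries, a log2 fold change of 0.76 ± 0.074 (adjusted p = 6.9e-07). MYBBP1A (0.75), RRP12 (0.61), POLR1G (0.78) and URB1 (0.55) were also called higher, and RIOK2, a kinase of late small subunit maturation, lower (-0.63). The 86 cytosolic ribosomal protein genes, in contrast, had a median of 0.035, and of 24 cytosolic aminoacyl-tRNA synthetases none was called by edgeR with the fold limit, 9 passing the adjusted p upwards and 8 downwards. At 24 h the ribosome biogenesis median was -0.15, and 25 of the 88 were lower than at 8 h by the direct test.

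Host genes of small nucleolar RNAs, long RNAs whose introns carry the guides for ribosomal RNA modification, showed the same direction. Of 28 tested, 12 were called higher and 0 lower, with a median of 0.33. SNHG17 had CPM of 24, 30.8 and 28.1 in untreated and 59.9, 56.4 and 59 in TEPA 8 h libraries, a log2 fold change of 1.08 ± 0.067 (adjusted p = 8.7e-09). GAS5 had CPM of 49.9, 61 and 54.1 in untreated and 91, 84.2 and 89.8 in TEPA 8 h libraries, with 0.68 ± 0.06 (adjusted p = 2.6e-07). The groups did not overlap for either gene. SNHG4 (1.31), SNHG26 (1.10) and SNHG1 (1.08) rose as well. Their spliced transcripts are known targets of nonsense-mediated decay, and 10 of 18 decay factors passed the adjusted p upwards and 3 downwards, none past the fold limit.

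Splicing regulators and nuclear-retained RNAs also rose in part. Of 30 SR proteins and CLK kinases 7 were called higher and none lower, while 15 passed the adjusted p upwards and 8 downwards, the latter share near the 24.5% of all genes. SRRM2, a scaffold of nuclear speckles, had CPM of 374, 487 and 449 in untreated and 739.6, 786 and 799 in TEPA 8 h libraries, a log2 fold change of 0.83 ± 0.068 (adjusted p = 1.4e-07). RSRP1 (0.81), PNISR (0.66), LUC7L3 (0.59), SRSF11 (0.58) and the splicing kinase CLK2 (0.57) rose; DDX39B (1.43) shares 30.8% of its exon bases with another gene and is uncertain. None of 27 hnRNP genes was called with the fold limit, 9 passing the adjusted p upwards and 7 downwards. MALAT1, a speckle RNA that stays in the nucleus, had CPM of 8.13, 11.8 and 10.3 in untreated and 41.3, 39.2 and 38.8 in TEPA 8 h libraries, a log2 fold change of 1.97 ± 0.10 (adjusted p = 1.7e-09). NEAT1, the backbone of paraspeckles, had CPM of 48.9, 58.3 and 51.6 in untreated and 100.2, 88.4 and 95.4 in TEPA 8 h libraries, with 0.84 ± 0.074 (adjusted p = 2.8e-07). Both RNAs were higher in every treated library.

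Inflammatory and interferon-stimulated genes were lower at 8 h more often than genes at large. Of 24 cytokines and chemokines tested, 9 were called lower and none higher, and of 58 interferon-stimulated genes 19 were called lower and 1 higher; 42 and 4 passed the adjusted p alone. The medians were -0.47 and -0.31. CXCL8, a neutrophil chemokine, had CPM of 18.3, 8.19 and 9.99 in untreated and 3.45, 3.35 and 3.13 in TEPA 8 h libraries, a log2 fold change of -1.86 ± 0.24 (adjusted p = 9.7e-06). CSF2, a myeloid growth factor, had CPM of 17.9, 11.3 and 11.9 in untreated and 4.72, 4.81 and 4.49 in TEPA 8 h libraries, with -1.54 ± 0.15 (adjusted p = 9e-07). CSF1, the macrophage growth factor, had CPM of 414, 309.6 and 339 in untreated and 195, 213 and 205 in TEPA 8 h libraries, with -0.79 ± 0.079 (adjusted p = 9.3e-07). For all 3 every treated library was below every untreated one, and untreated replicate 1 was the highest. CXCL1 (-1.52), IL1B (-1.86), IL1A (-1.60) and IL6 (-0.91) fell too, the first 3 at under 10 CPM. Without untreated replicate 1 CXCL1 stood at -0.99 and the median of the list at -0.36. Macrophage marker CD14, at 3.85 CPM when untreated, and the endothelial marker PECAM1, at 3.59 CPM, fell too (-2.32 and -1.76). Of the 7 tested markers of other cell types, 3 were called lower and 1 higher. The endothelial markers CDH5 and VWF had at most 3 counts in any of the 6 libraries and the macrophage marker LYZ at most 1, and PTPRC did not pass the filter. The part of CD14 and PECAM1 in the result was not tested.

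Among 30 NF-kB subunits and feedback genes 7 were called lower and none higher, and 15 and 4 passed the adjusted p alone. RELB, a subunit, had CPM of 45.2, 33.6 and 34.3 in untreated and 20.3, 22.6 and 25.1 in TEPA 8 h libraries, a log2 fold change of -0.73 ± 0.097 (adjusted p = 1.5e-05). ICAM1 (-0.97), the adhesion molecule for leukocytes, TNIP1 (-0.78), IKBKE (-0.70) and PTX3 (-0.89) fell as well. The inhibitor NFKBIA stood at -0.26 (adjusted p = 0.0064).

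**Figure D3:**
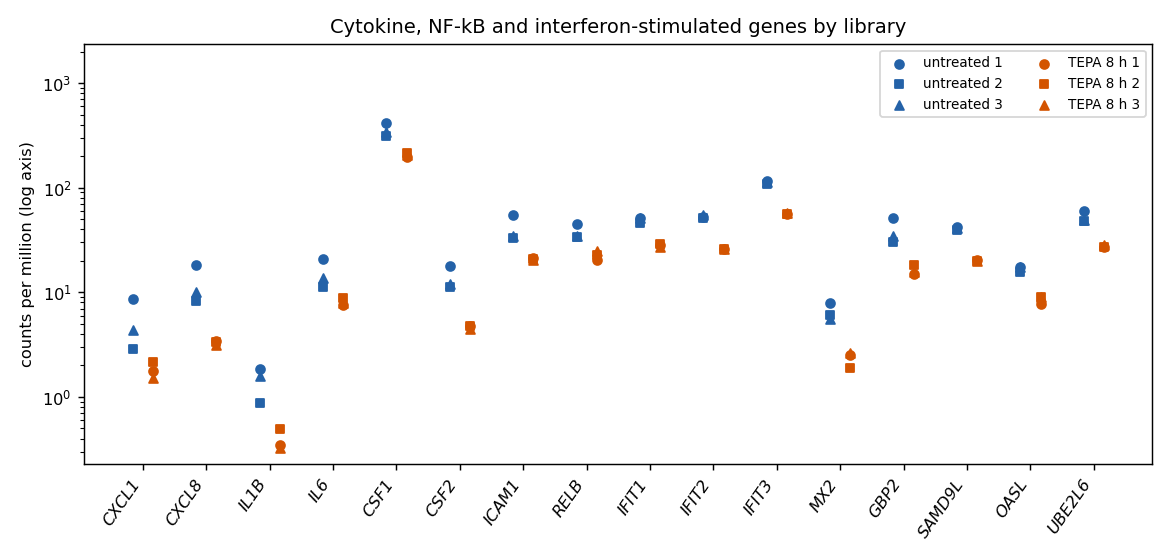
CPM in each library (log axis) for cytokine, NF-kB and interferon-stimulated genes; blue symbols are untreated and orange symbols TEPA 8 h libraries. The treated libraries lie below the untreated ones for each gene, and untreated replicate 1 (blue circle) is the highest for the cytokines.

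The interferon-stimulated genes that fell included antiviral effectors of several kinds. IFIT3, which binds foreign RNA with its partners, had CPM of 116, 109.6 and 112 in untreated and 55.9, 56.1 and 57.2 in TEPA 8 h libraries, a log2 fold change of -0.999 ± 0.037 (adjusted p = 1.3e-10). SAMD9L had CPM of 41.9, 39.5 and 41.2 in untreated and 20.4, 20.1 and 20.1 in TEPA 8 h libraries, with -1.01 ± 0.046 (adjusted p = 5.1e-10). The 3 libraries of each group lay close together for both, and the list's median without untreated replicate 1 was -0.29. MX2 (-1.48), GBP2 (-1.24), ISG20 (-1.19), OAS1 (-1.17), IFIT2 (-1.01), UBE2L6 (-0.92) and IFIT1 (-0.82) also fell. ISG15, a ubiquitin-like protein, stood at -0.49 (adjusted p = 6.8e-06). IRF9, called higher at 0.88, shares 23.9% of its exon bases with a neighbour and is uncertain. In antigen presentation and checkpoint genes VSIR fell (-1.15) while CD274, which encodes PD-L1, rose by 0.41 (adjusted p = 0.00048). At 24 h the interferon median was 0.22, and 31 of 58 genes were higher than at 8 h by the direct test.

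The core of the interferon-stimulated response element was searched in the same promoter windows on both strands as a pair of GAAA runs parted by 2 bases of any kind. It was present in 57.6% of 59 promoters of 43 listed interferon genes and in 3.57% of all 35116 promoters. Matches to this exact pattern are given beside the changes for a few genes only, and their relation over the list was not tested. IFIT1 (-0.82) and ISG15 (-0.49) held 2 each, and those of ISG15 overlap. ISG20 (-1.19) held 1, and OAS1 (-1.17) and SAMD9L (-1.01) held 0 in this window. Looser patterns were not searched, and the OAS1 window holds gaaacgaaa, which the spacing of 2 bases leaves out. The promoters of IFIT1 and ISG15 are shown as examples that hold the core, in capitals.
IFIT1 promoter, chr10:89392373-89392672, plus strand: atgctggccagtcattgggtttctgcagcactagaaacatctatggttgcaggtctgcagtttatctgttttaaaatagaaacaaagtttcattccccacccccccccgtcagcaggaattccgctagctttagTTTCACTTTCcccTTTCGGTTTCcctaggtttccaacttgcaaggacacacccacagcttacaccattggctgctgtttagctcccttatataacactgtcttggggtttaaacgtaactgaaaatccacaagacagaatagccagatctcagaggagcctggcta
ISG15 promoter, chr1:1013247-1013546, plus strand: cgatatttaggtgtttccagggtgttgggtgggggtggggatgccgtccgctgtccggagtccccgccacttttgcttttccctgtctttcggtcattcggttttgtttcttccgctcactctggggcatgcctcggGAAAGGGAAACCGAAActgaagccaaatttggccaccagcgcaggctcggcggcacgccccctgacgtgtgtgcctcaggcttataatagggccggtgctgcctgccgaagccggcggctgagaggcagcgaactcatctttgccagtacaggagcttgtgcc

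Some output and feedback genes of the ERK pathway fell, together with 3 EGF-family ligands. Of 42 ERK genes 11 were called lower and 3 higher, with a median of -0.14. DUSP6, the phosphatase that switches off ERK, had CPM of 88.6, 66.7 and 76.6 in untreated and 50.3, 40.3 and 45.8 in TEPA 8 h libraries, a log2 fold change of -0.76 ± 0.087 (adjusted p = 3.4e-06). SPRY1, a receptor feedback inhibitor, had CPM of 48.4, 40.5 and 42.5 in untreated and 19.2, 18.8 and 21.3 in TEPA 8 h libraries, with -1.15 ± 0.076 (adjusted p = 1.5e-08). DUSP4 (-0.85), DUSP5 (-0.84), PHLDA1 (-0.66), ETV4 (-0.53) and DUSP1 (-0.68) fell too, and DUSP7 (0.56) and HMGA2 (0.69) rose. Both DUSP6 and SPRY1 were separate between groups. SPRY4 fell by less than the fold limit (-0.39, adjusted p = 7e-06), and the AP-1 gene FOSL1 rose (0.35, adjusted p = 0.00046). Of 39 receptor tyrosine kinases and EGF-family ligands 6 were called lower and 1 higher, while 18 passed the adjusted p downwards and 10 upwards. TGFA, a ligand of EGFR, had CPM of 137, 125 and 131 in untreated and 76, 75.6 and 79.1 in TEPA 8 h libraries, a log2 fold change of -0.77 ± 0.041 (adjusted p = 1.8e-09), and EREG (-0.68) and AREG (-0.83) moved the same way.

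Among 40 immediate-early and AP-1 genes 8 were called lower and 3 higher. JUND, an AP-1 subunit, had CPM of 196, 147 and 167 in untreated and 79.8, 93.1 and 89.8 in TEPA 8 h libraries, a log2 fold change of -0.96 ± 0.083 (adjusted p = 2.1e-07). IER3 (-0.68), KLF9 (-0.93) and KLF11 (-0.74) fell, and the stress gene GADD45B rose by 0.94. Of 30 genes in the BMP list 5 were called higher and 4 lower. ID2, an inhibitor of differentiation factors, rose by 1.06 and the inhibitory SMAD7 by 0.78, whereas the stress-induced ligand GDF15 fell, with CPM of 45, 26.9 and 30.4 in untreated and 9.05, 9.23 and 9.9 in TEPA 8 h libraries (-1.86 ± 0.14, adjusted p = 6.7e-08), and the activin subunit INHBB stood at -1.002 (adjusted p = 1.1e-08). Of 32 Notch genes 6 were called lower and 2 higher, the former including the glycosyltransferase LFNG (-1.10) and the targets HES4 (-0.72) and NRARP (-0.61), and its relative MFNG was called higher (1.08). Filamin C, FLNC, an actin crosslinker, had CPM of 364, 466 and 428 in untreated and 928, 939.6 and 913 in TEPA 8 h libraries and rose by 1.14 (adjusted p = 3e-09). Of 39 YAP and TAZ genes 4 were called lower, a share near the 7.67% of all genes, and none higher, and the list's median was 0.006.

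Stress programmes did not move together. Of 27 endoplasmic reticulum stress genes and chaperones 21 passed the adjusted p downwards and none upwards, with a median of -0.27; DNAJB9 (-0.62) and HERPUD1 (-0.55) were called lower, and the chaperone HSPA5 stood at -0.42 (adjusted p = 3e-07). In the integrated stress response DDIT4, an inhibitor of mTORC1, had CPM of 192, 119 and 135 in untreated and 64.9, 70.6 and 68.8 in TEPA 8 h libraries and fell by 1.12 (adjusted p = 1.5e-06). CEBPD (-1.34), DDIT3 (-0.57) and ATF4 itself (-0.22, adjusted p = 0.00099) fell, but the list as a whole went both ways. Of its 32 genes 10 passed the adjusted p upwards and 9 downwards, 2 were called higher and 5 lower, and the median of -0.022 changed sign without untreated replicate 1 (0.047). The number called higher went to 0 without TEPA 8 h replicate 3 and to 1 without untreated replicate 2, untreated replicate 3 or TEPA 8 h replicate 1. Of 29 heat shock genes 14 passed the adjusted p upwards and 4 downwards, with a median of 0.17, or 0.11 without untreated replicate 1. HSPA1A (1.51) and HSPA1B (1.24) rose; they are near-identical copies whose reads can be split or lost, and the collagen chaperone SERPINH1 fell (-0.60). Of 30 NRF2 targets 6 passed the adjusted p upwards and 15 downwards (median -0.10), and HMOX1 stood at -0.086 (adjusted p = 0.35) and NQO1 at -0.16 (adjusted p = 0.0027). Catalase, CAT, fell by 0.56, and the copper-dependent SOD1 stood at -0.15 (adjusted p = 0.0014).

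Several genes of fatty acid desaturation and lipid transport fell. Of 25 fatty acid synthesis genes 5 were called lower, or 8 without TEPA 8 h replicate 3, and 1 higher. SCD, the stearoyl-CoA desaturase, had CPM of 1829, 1136 and 1411 in untreated and 408, 442 and 427 in TEPA 8 h libraries, a log2 fold change of -1.78 ± 0.11 (adjusted p = 1.1e-08). FADS2, the entry desaturase for polyunsaturated fatty acids, had CPM of 584, 314 and 404 in untreated and 138, 142 and 133 in TEPA 8 h libraries, with -1.66 ± 0.15 (adjusted p = 3.2e-07). Treated and untreated libraries were far apart for both. FADS1 (-0.66) and the acyl-CoA synthetase ACSL3 (-1.08) fell, the glycerol-phosphate acyltransferase GPAM rose (0.93), and the fatty acid synthase gene FASN stood at -0.42 (adjusted p = 0.00022). Of 19 lipid droplet and liver X receptor genes 8 were called lower and none higher, the former including the lipase LIPG (-2.61), the sterol exporters ABCG1 (-2.49) and ABCA1 (-0.72), and the receptor NR1H3 (-0.77). ABCG1 stood at 0.35 at 24 h.

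In carbon metabolism TXNIP and ARRDC4, both arrestins induced when glucose phosphates accumulate, rose. TXNIP had CPM of 44.5, 36.4 and 34.6 in untreated and 91.9, 90.2 and 90.6 in TEPA 8 h libraries, or 1.24 ± 0.068 on the log2 scale (adjusted p = 2.6e-09), and ARRDC4 1.57 at about 1 CPM. The glucose transporter SLC2A3 (-0.78) and the aldolase ALDOC (-1.17, or -0.78 without untreated replicate 1) fell. Polyamine enzymes moved in both directions: ODC1, which makes putrescine, had CPM of 56.3, 88.4 and 76.3 in untreated and 121, 107 and 117 in TEPA 8 h libraries and rose by 0.64 (adjusted p = 0.00012), AMD1, which supplies the aminopropyl donor, fell by 0.69 (adjusted p = 1.2e-07), and the acetyltransferase SAT1 rose by 0.36 (adjusted p = 0.0044). Of 45 lysosomal genes 24 passed the adjusted p downwards and 5 upwards, and of 39 autophagy genes 16 and 6. The autophagy receptors SQSTM1 (-0.59) and OPTN (-0.71) were called lower.

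Cell cycle genes changed by small amounts at 8 h. Of 67 mitotic genes 35 passed the adjusted p upwards and 5 downwards, with a median of 0.12, and of 60 replication genes 16 and 14 (median 0.008). With the fold limit 1 of the 60 replication genes was called higher, the replicative polymerase gene POLE (0.71). Of 45 homologous recombination and Fanconi genes 3 were called higher, XRCC2 (0.79) and FANCA (0.57) among them. Both shares were below the 10.1% of all genes, and 0 genes of either list were called lower. None of 17 CDK inhibitors and G1 cyclins was called with the fold limit, 2 passing the adjusted p upwards and 7 downwards, and CDKN1A stood at 0.21 (adjusted p = 0.0033). Of 17 BCL2 family genes 4 were called lower and none higher, though leaving out untreated replicate 1 gave 1 such call and leaving out TEPA 8 h replicate 1 gave 2, and 11 passed the adjusted p downwards and 3 upwards (median -0.19). The mitophagy receptor BNIP3L (-1.04) was among those called, and MCL1 stood at -0.11 (adjusted p = 0.046, not passing in 6 of 14 alternative fits). Most transcripts of replication-dependent histone genes lack the poly(A) tail these libraries select. Of 73 such genes listed 63 were in the deposited counts, and 18 passed the filter. Of the 18, 7 were called lower and 1 higher, and H2BC12 (-0.57) is an example of those called lower. The gene called higher was not called without untreated replicate 2 or 3 or TEPA 8 h replicate 2 or 3.

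Among chromatin genes 6 of 43 iron-dependent demethylases and hydroxylases were called higher, a share near the 10.1% of all genes, and 2 lower, while 10 and 11 passed the adjusted p. Among them were TET3 (0.58) and KDM6B (0.57) above 10 CPM, and the hydroxylases P4HA1 (-0.75) and EGLN3 (-0.82), the pair called lower. Of 20 clock genes 2 were called lower, the repressor BHLHE41 (-1.25) among them, and 2 higher, PER2 (0.54) among them. These shares were near the 7.67% and 10.1% of all genes. Zinc finger genes of the ZNF family spread both ways, 36 of 454 called higher and 30 lower, with a median of 0.028. Both shares were below the 10.1% and 7.67% of all genes.

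Outside the lists, the largest changes among well-counted genes were of mixed kinds. IGFN1, a sarcomeric protein gene, had CPM of 26.7, 66.6 and 45.7 in untreated and 239.7, 228 and 272 in TEPA 8 h libraries, a log2 fold change of 2.40 ± 0.19 (adjusted p = 1.1e-07). TFF1, a secreted trefoil peptide, had CPM of 1.41, 1.36 and 1.6 in untreated and 7.15, 7.27 and 7.29 in TEPA 8 h libraries, with 2.31 ± 0.12 (adjusted p = 1.3e-09). TRPM2 (1.91), a calcium channel opened by ADP-ribose, and CARD9 (1.74), an adaptor of innate receptors, rose. The readthrough gene RTEL1-TNFRSF6B (2.02), PILRB (1.72) and CYB5D1 (1.75) rose as well but share exon bases with neighbours. In the other direction the small GTPase RAB37 had CPM of 32.5, 16.1 and 21 in untreated and 2.1, 3.29 and 3.73 in TEPA 8 h libraries, with -2.93 ± 0.23 (adjusted p = 8.2e-08). BDKRB2, the bradykinin receptor, stood at -2.31, NNMT, which methylates nicotinamide, at -1.83, the glucose transporter SLC2A12 at -1.92 and the mucin MUC5AC at -1.82, all passing the test downwards.

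The calls were unevenly spread over kinds of genes. Of 12650 protein-coding genes 6.72% were called higher and 8.02% lower, whereas of 912 long noncoding RNAs 20.5% were higher and 11.4% lower, and of 1773 genes with clone names that could not be matched to the annotation 23.9% were higher and 6.03% lower. Their median untreated levels were 32.1, 1.03 and 0.498 CPM in that order, so the classes were not matched in level. Of 29 readthrough genes, at a median of 0.472 CPM when untreated, 16 were called higher and 0 lower. Among protein-coding genes with no exon base shared on the same strand 5.79% were higher and 8.43% lower, against 29.7% and 3.03% of the 165 sharing 50% to 90%. Overlapping genes had low counts, with median untreated levels of 1.13 CPM against 34.3 CPM. Below 1 CPM 38.2% of the 89 genes sharing 50% or more were higher and 0% lower, against 15.3% and 11.5% of 881 without overlap. At 1 to 10 CPM 27.1% of the 70 genes sharing 50% or more were higher and 4.29% lower, against 12.2% and 20.7% of 1732 without overlap, and above 10 CPM 3.7% of 27 and 3.27% of 7748 were higher. For protein-coding genes sharing under 10%, the share called higher was 3.16% in the quintile of lowest transcript GC content and 10.6% in the highest, and genes of 1 to 5 exons were called lower in 11.9% of cases, against 6.11% of genes with 19 or more. The annotation matched 70.5% of genes called higher, too few for a statement on the whole set, so these shares hold for the matched genes.

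**Figure D4:**
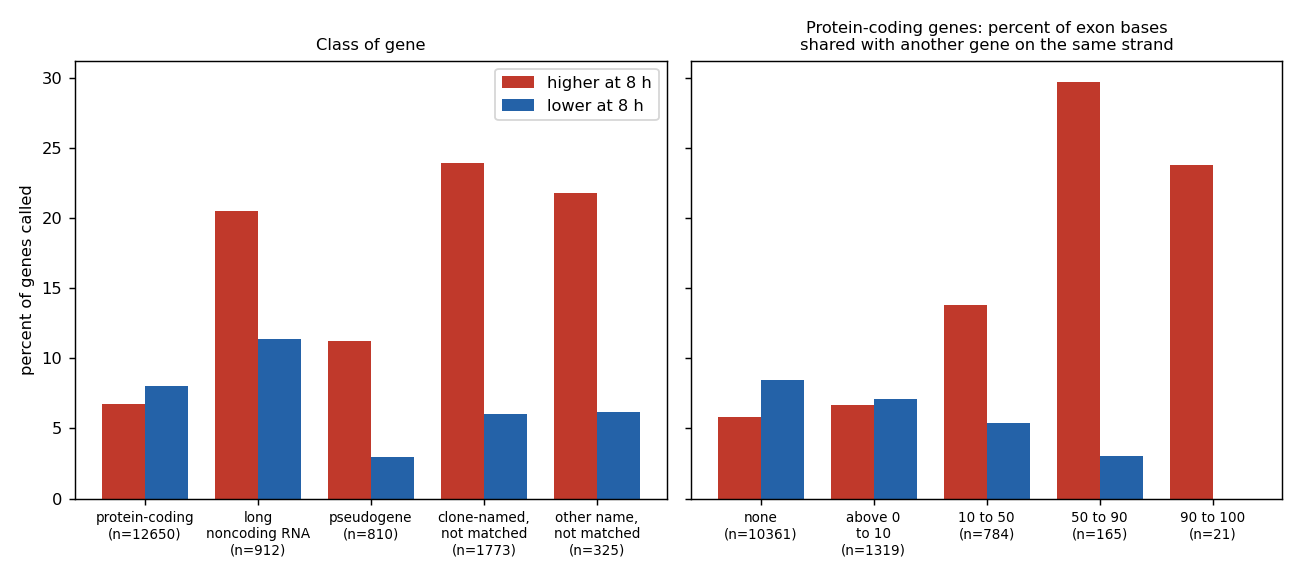
Percent of genes called higher (red) or lower (blue) at 8 h, by class of gene (left) and, for protein-coding genes, by the percent of exon bases shared with another gene on the same strand (right), with the number of genes under each pair of bars. Higher calls reached 20.5% of long noncoding RNAs and 29.7% of protein-coding genes sharing 50% to 90% of their exon bases, against 5.79% of those without overlap. The classes and bins were not matched in expression level.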

How the data were processed

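RNA was measured by paired-end stranded poly(A) RNA-seq. The authors deposited raw counts per gene name, made by FastQC, HISAT2 alignment to hg38 and strand-specific featureCounts counting over exons of an Ensembl annotation, as the study's methods state; 0 of the deposited columns were left unused. Fragments that fall in more than 1 gene are left out by that counter's default. The counts of all 9 libraries were fitted in edgeR 4.0.16 (R 4.3.3) with TMM factors, filterByExpr at a minimum count of 10 and the quasi-likelihood F test, and the contrast of TEPA 8 h minus untreated was adjusted by the Benjamini-Hochberg method over 16556 genes; these held 99.95% of the counts. CPM use the TMM-scaled library sizes. Column names gave each library's group and replicate. DESeq2 1.42.0 and other alternatives were run too, and the edgeR step was tested on simulated data.

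The comparison and the gene lists were chosen with earlier results of these data known, so list counts are descriptions beside the share of all genes and carry no test. Genes were named as the 15 largest changes in each direction with a mean of at least 100 counts over the 6 libraries and no overlap between groups, as key members of each list, or as up to 4 called members in each direction with the largest change; other members were chosen after their values were seen. Coordinates and overlaps come from GENCODE 44 and promoters from RefSeq. With 3 libraries against 3, a permutation test of a single gene cannot go below 0.1.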

Additional observations from a re-analysis of the deposited data

Results flagged for a closer look

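Some genes named in the report passed the test in opposite directions at the 2 times, with log2 fold changes beyond 0.5 both times, and also differed between 24 h and 8 h by the direct edgeR test. Over all genes tested, this held for 104 that fell early and for 43 that rose early. CEBPD, the stress transcription factor, stood at -1.34 at 8 h and 0.55 at 24 h, a difference of 1.88 (adjusted p = 1.7e-08). CSF1, the macrophage growth factor, stood at -0.79 at 8 h and 0.74 at 24 h, a difference of 1.53 (adjusted p = 7.1e-10). GBP2, an interferon-induced GTPase, stood at -1.24 at 8 h and 0.55 at 24 h, a difference of 1.79 (adjusted p = 4.5e-08). KLF9, a Krüppel-like factor, stood at -0.93 at 8 h and 0.98 at 24 h, a difference of 1.91 (adjusted p = 3.8e-08). NEAT1, the paraspeckle RNA, stood at 0.84 at 8 h and -0.80 at 24 h, a difference of -1.64 (adjusted p = 2.9e-10). OAS1, the antiviral synthetase, stood at -1.17 at 8 h and 0.61 at 24 h, a difference of 1.78 (adjusted p = 3.1e-06). PECAM1, the endothelial marker, stood at -1.76 at 8 h and 1.18 at 24 h, a difference of 2.94 (adjusted p = 1.1e-09). Both times share the untreated libraries. No formal outlier test was run on groups of 3 libraries.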

How the results depend on the processing

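The counts of 1673 genes higher and 1270 lower stayed within 1.5 times of these values under 14 alternatives, from 1340 to 1782 higher and from 1047 to 1426 lower. Leaving out 1 library at a time gave 1515 to 1713 higher and 1047 to 1426 lower, and DESeq2 gave 1409 and 1187. With no fold limit 4165 genes were higher and 4051 lower, and with a log2 fold limit of 1 there were 723 and 405. Over the 158 genes named, 3 changed in any alternative in whether they passed the adjusted p (EGFR, MCL1 and MT-RNR1). No direction of a gene that passed was reversed. This count left the fold limit aside. Some named genes called with it lay inside it in at least 1 alternative, such as HERPUD1 (-0.47), ETV4 (-0.49) and URB1 (0.47). The median kept its sign in all 14 alternatives for 51 of 62 gene lists; the rest had medians between -0.022 and 0.045.

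The replicate block gave 1628 higher and 1238 lower genes. Deviations of libraries with the same number correlated at -0.0313, -0.0217 and 0.0273, so no shared deviation was visible. These values cannot show whether such libraries were prepared together. Low-level genes limit what can be read at this depth, as do genes that share exon bases with others and the spread among untreated libraries.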
